A study of Mus musculus with 12 samples.

Results

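Chemokine transcripts were examined in GFP+ acute myeloid leukemia (AML) cells that had grown in 3 kinds of host mice. The genes were 10 chemokine genes chosen by name, of 55401 genes in the deposited table: Ccl2, Ccl3, Ccl4, Ccl5, Ccl6, Ccl9, Cxcl2, Cxcl10, Cxcl16 and Pf4. Each was found by its mouse gene ID, and each had 1 row. The leukemia was driven by MLL-AF9, a fusion oncogene introduced into mouse bone marrow progenitors together with GFP by a retroviral vector, and the cells had been passed repeatedly from mouse to mouse before this experiment. They were placed into non-irradiated adult female mice of 3 kinds: wild-type C57BL/6 (WT), Rag2-/- on the C57BL/6J background, and NSG. Rag2-/- mice have no mature T or B cells but retain NK cells, whereas NSG mice lack T, B and NK cells. All hosts received the same MLL-AF9 cells, and no group was without leukemia. The cells were recovered from bone marrow of moribund mice, with 4 libraries a host, which the labels call biological replicates without naming the animals.

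Chemokines are small secreted proteins that direct the migration of leukocytes through G protein-coupled receptors. CC chemokines such as Ccl3, Ccl4 and Ccl5 attract monocytes, T cells and NK cells, Cxcl2 attracts neutrophils through Cxcr2, and the interferon-induced Cxcl10 attracts T and NK cells through Cxcr3. Cxcl16 is made as a membrane protein and can be shed, and Pf4 is stored in platelet granules.

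The deposited values are TPM, transcript levels scaled to gene length and to a common total per library, so levels can be set side by side between genes. Sequencing depth, inferred from the steps between low values, came to 8.0 to 21.4 a library, in units of 1000000 reads. The estimates were highest in Rag2-/- libraries, with a median of 14.2 against 8.46 in WT and 10.0 in NSG libraries in the same unit. Of 10 genes listed as markers of these cells, 9 had a mean of at least 1 TPM. Hoxa9 lay between 192 and 234 TPM, and Mef2c, another gene of that list, stayed under 1 TPM. The summed level of the list was 1553 to 1671 TPM in WT, 1114 to 1349.7 in Rag2-/- and 1264 to 1657 in NSG libraries. Its most abundant gene, Mpo (myeloperoxidase of primary granules), was at 508 to 593 TPM in WT, 70.1 to 287 in Rag2-/- and 219 to 710.4 in NSG libraries, and fell in Rag2-/- against WT (log2 difference -2.13, limma adjusted p = 0.0189). Markers of other cells were not all absent. The summed level of 10 genes of neutrophils and their precursors was 344 to 553 TPM in WT, 817 to 2293 in Rag2-/- and 453 to 569.6 in NSG libraries. A pair of libraries stood apart for several of the genes described here, WT replicate 1 and NSG replicate 3. Several of the values that rest on them, but not all, are given with and without them. Because the RNA is from bulk cells, fewer cells that make a transcript and less of it per cell cannot be told apart.

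Of the 10 chemokine genes, 6 were clearly expressed in all 3 hosts, 1 was expressed unevenly, and 3 lay near the detection limit. The 6 were Ccl3, Ccl9, Ccl4, Cxcl16, Ccl6 and Cxcl10, which had at least 1 TPM and at least 10 estimated reads in each of the 12 libraries. Cxcl2 reached 1 TPM in 11 libraries and 10 reads in 9. Ccl5 reached 1 TPM in 2 libraries, Ccl2 in 3 and Pf4 in 0. As a background for these levels, 20 genes of liver, pancreas, brain, muscle, skin, kidney, retina and germ cells were read out. Of these, 18 had a mean below 1 TPM, and their highest value in a library was 1.52 TPM. The other 2 were Apoa2 (2.58 to 6.70 TPM) and Tnni3 (2.88 to 6.24 TPM), so a value of a few TPM alone did not separate the chemokine genes from genes of other tissues. Ccl3, Ccl9, Ccl4 and Cxcl16 exceeded both of them in 12 of 12 libraries, Ccl6 in 11, Cxcl10 in 10, Cxcl2 in 2, and Ccl5, Ccl2 and Pf4 in 0.

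Ccl3, Ccl4 and Ccl9 made up 92.8% to 97.5% of the summed TPM of the 10 genes in every library. That sum was 845 ± 73.1 TPM in WT, 896 ± 103 in Rag2-/- and 796 ± 59.2 in NSG cells (mean ± SD, n = 4 each). In order of mean level over the 12 libraries, Ccl3 (433 TPM) was followed by Ccl9 (316), Ccl4 (60.0), Cxcl16 (12.5), Ccl6 (8.62), Cxcl10 (7.96), Cxcl2 (5.57), Ccl5 (0.666), Ccl2 (0.614) and Pf4 (0.215). Each of the first 4 genes exceeded the next in this order in 12 of 12 libraries, from Ccl3 over Ccl9 to Cxcl16 over Ccl6, as did Cxcl2 over Ccl5. Cxcl10 exceeded Cxcl2 in 11 of 12, and Ccl2 exceeded Pf4 in 9 of 12. Ccl6 exceeded Cxcl10 in 6 of 12 libraries, and Ccl5 exceeded Ccl2 in 5 of 12, so these pairs did not differ in level beyond their spread. The order pools the hosts, and Cxcl16 exceeded Cxcl10 in 4 of 4 WT and 4 of 4 Rag2-/- libraries but in 1 of 4 NSG libraries. The mean of Cxcl2 was 2.30 TPM without WT replicate 1, which left its place unchanged.

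**Figure D1:**
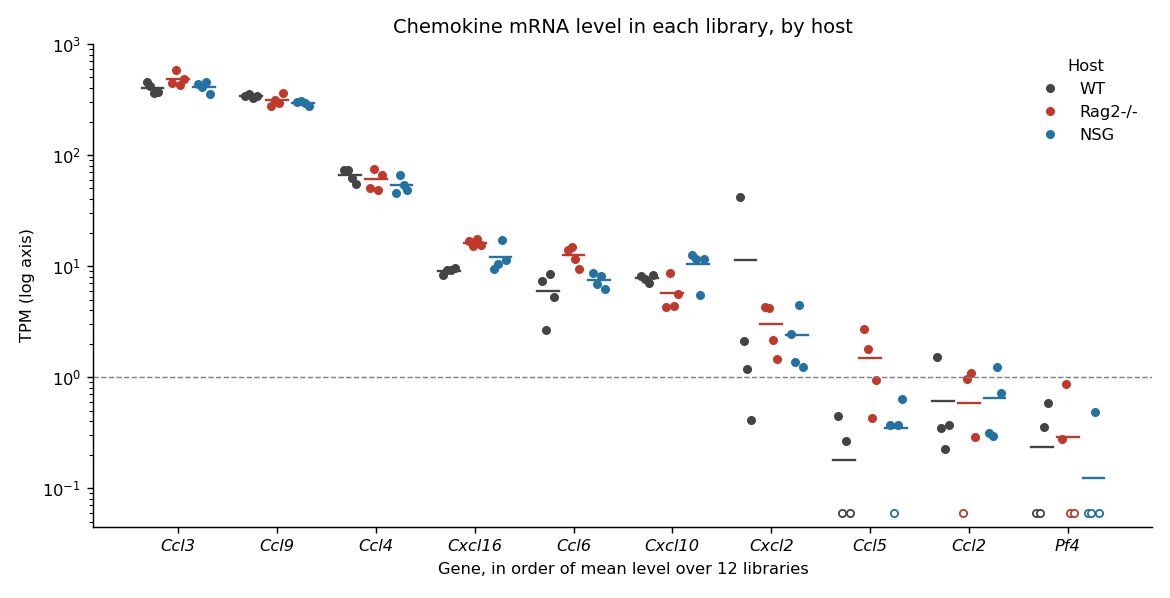
TPM on a log axis (vertical) of each chemokine gene (horizontal, ordered by mean level) in the 4 WT, 4 Rag2-/- and 4 NSG libraries; each point is a library, short lines are host means, open points at the bottom are values of 0, and the dashed line is 1 TPM. Ccl3 and Ccl9 sit at 276 to 585 TPM in all libraries, while Ccl5, Ccl2 and Pf4 scatter around or under 1 TPM.

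The genes lie in clusters. Ccl5, Ccl9, Ccl6, Ccl3 and Ccl4 are within 138.9 kb of mouse chromosome 11 (GRCm38 chr11:83525778-83664683). Pf4 (chr5:90772435-90773383) and Cxcl2 (chr5:90903871-90905938) are 130487 bases apart on chromosome 5. Cxcl10 (chr5:92346638-92348889), Ccl2 (chr11:82035571-82037453) and Cxcl16 (chr11:70453983-70459984) lie apart from these. Neighbours in the chromosome 11 cluster differed widely in level, with Ccl5 at 0.666 TPM and Ccl9 at 316 TPM separated by 42400 bases.

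Sequences upstream of the start were at hand for 6 of the 10 genes in RefSeq (GRCm38.p6): Pf4, Cxcl2, Cxcl10, Ccl9, Ccl6 and Ccl3. The 250 bases before the start were searched on both strands for GGGNNTTNCC (a form of the kB motif bound by NF-kB), GAAANNGAAA (a form of the interferon-stimulated response element, ISRE), TGANTCA (AP-1) and TTGCNNAA (C/EBP). The motifs were chosen after the sequences were seen, and no 2 matches overlap within a gene. The windows of the inflammatory genes Cxcl2 and Cxcl10 and of the abundant Ccl9 are shown, 5′ to 3′ on the strand of the gene, with kB and ISRE matches in capitals. They lie at chr5:90903649-90903898 (plus strand), chr5:92348890-92349139 (minus) and chr11:83578637-83578886 (minus).
Cxcl2: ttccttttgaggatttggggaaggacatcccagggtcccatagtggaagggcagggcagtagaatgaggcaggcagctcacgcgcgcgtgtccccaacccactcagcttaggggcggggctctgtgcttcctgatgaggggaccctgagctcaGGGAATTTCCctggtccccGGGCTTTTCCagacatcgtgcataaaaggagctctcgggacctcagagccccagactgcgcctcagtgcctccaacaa
Cxcl10: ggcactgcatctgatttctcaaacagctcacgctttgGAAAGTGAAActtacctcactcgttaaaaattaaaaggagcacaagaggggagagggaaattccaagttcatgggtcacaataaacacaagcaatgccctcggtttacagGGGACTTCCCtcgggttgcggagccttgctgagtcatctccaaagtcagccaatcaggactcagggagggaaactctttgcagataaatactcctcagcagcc
Ccl9: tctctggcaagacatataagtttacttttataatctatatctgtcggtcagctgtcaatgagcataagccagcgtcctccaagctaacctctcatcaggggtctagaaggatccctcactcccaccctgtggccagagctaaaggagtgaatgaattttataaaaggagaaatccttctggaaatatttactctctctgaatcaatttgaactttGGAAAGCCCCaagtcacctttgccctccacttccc
Cxcl2 holds 2 kB matches, at 97 to 88 and 78 to 69 bases before the start. Cxcl10 holds an ISRE match at 213 to 204 bases and a kB match at 103 to 94 bases before the start, besides an AP-1 match. Ccl9 holds 1 kB match on the opposite strand, at 35 to 26 bases, and 1 AP-1 match. Pf4 has a C/EBP match, and the windows of Ccl3 and Ccl6 have no match to these letters. Of all 32851 windows of this length, 4.11% hold the kB form, 2.98% the ISRE form, 6.75% the AP-1 form and 9.56% the C/EBP form. A match describes the letters and is not evidence of binding.

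Between hosts, 1 of the chemokine genes met the criteria for a difference, Cxcl16, which rose in Rag2-/- hosts. Levels were compared as log2(TPM + 1) by limma, with all 12 libraries and the 15026 genes that averaged 1 TPM or more in the fit. Calls needed both a Benjamini-Hochberg adjusted p under 0.05 and a log2 fold change larger than 0.5 in either direction. The 7 genes from Ccl3 to Cxcl2 entered this test. Between Rag2-/- and WT cells, 1 of the 7 was called higher and 0 lower, where 1.47% of all genes tested were called. An unadjusted p below 0.05 was reached by 3 of the 7 and by 20.9% of all genes tested. Between Rag2-/- and NSG cells, 0 of 7 were called against 0.213% of all genes, and 3 of the 7 had an unadjusted p below 0.05 beside 12.6% of all genes. NSG and WT cells differed in 0 of 7, with 0% of all genes called and 2 of the 7 at an unadjusted p below 0.05 beside 9.16% of all genes. The median log2 difference of the 7 genes was -0.14 for Rag2-/- against WT, 0.23 for Rag2-/- against NSG and 0.04 for NSG against WT, beside 0.02, 0.01 and 0.00 for all genes tested. The libraries of the 2 hosts did not overlap for 2 of the 7 genes between Rag2-/- and WT (16.9% of all genes tested), 1 between Rag2-/- and NSG (6.59%) and 1 between NSG and WT (4.59%). The comparisons share libraries, Rag2-/- in the first 2 and WT in the first and last.

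**Figure D2:**
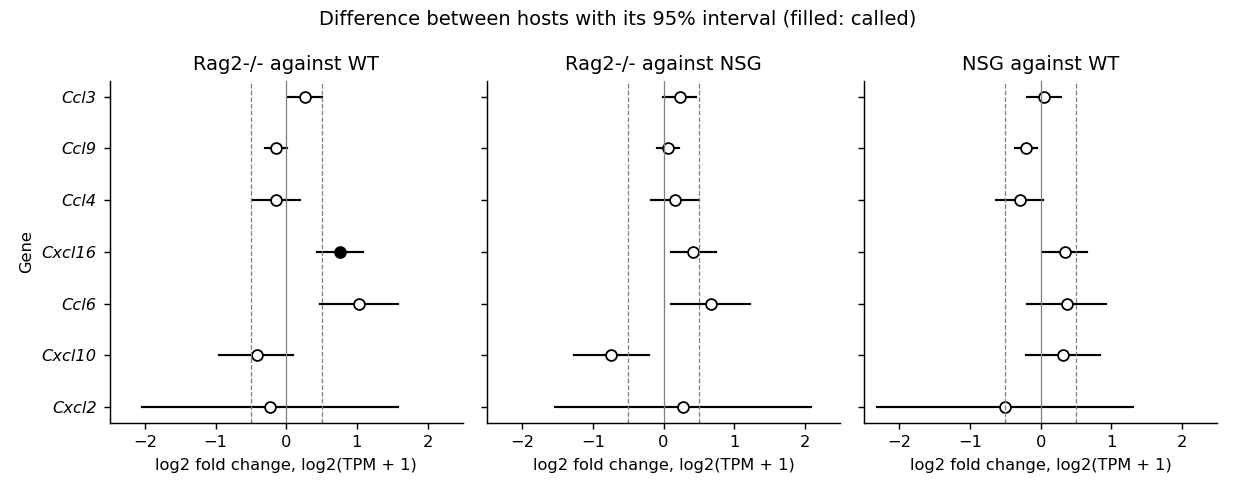
Log2 fold change on the log2(TPM + 1) scale (horizontal) with its 95% interval for the 7 chemokine genes tested (vertical), in 3 comparisons of hosts; filled points are called, and dashed lines mark 0.5 in either direction. Cxcl16 in Rag2-/- against WT is the filled point, and the interval of Cxcl2 is the widest in each panel.

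The abundant CC chemokines differed little. Ccl3 (MIP-1 alpha), a ligand of Ccr1, was at 454, 418, 362 and 372 TPM in WT, 442, 585, 431 and 482 in Rag2-/-, and 433, 408, 458 and 353 in NSG libraries. The hosts overlapped, and Rag2-/- replicate 2 was the highest library. Its log2 difference was 0.27 for Rag2-/- against WT (SE 0.11, limma adjusted p = 0.193), with a 95% interval of 0.03 to 0.50. Ccl9 (MIP-1 gamma), a ligand of Ccr1, had 342, 356, 328 and 343 TPM in WT, 278, 311, 292 and 362 in Rag2-/-, and 300.1, 309, 296 and 276 in NSG libraries. The 4 WT libraries lay above the 4 NSG libraries, while the Rag2-/- libraries spanned both. The log2 difference of NSG against WT was -0.21 (95% interval -0.37 to -0.05, limma adjusted p = 0.452), which was not called. Ccl4 (MIP-1 beta), an attractant of monocytes and lymphocytes, was at 73.8, 72.7, 62.4 and 55.4 TPM in WT, 50.5, 75.4, 48.6 and 66.8 in Rag2-/-, and 45.8, 66.0, 54.1 and 48.2 in NSG libraries. The 3 hosts overlapped, and the log2 differences were -0.14 (95% interval -0.48 to 0.19), 0.16 (-0.18 to 0.50) and -0.30 (-0.64 to 0.03) in the order used above. Ccl9 was the steadiest of the 10 genes over the 12 libraries, with a coefficient of variation of 9.36%, followed by Ccl3 with 14.3% and Ccl4 with 18.1%. Ccl3 and Ccl4, though neighbours with 13228 bases between them, moved together only loosely over the 12 libraries (Pearson r = 0.43, Spearman rho = 0.41, and r = 0.02 without the 2 libraries farthest from the median of Ccl3).

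Cxcl16 is the ligand of Cxcr6 and is held at the cell surface by a membrane anchor. It was at 8.35, 9.32, 9.27 and 9.59 TPM in WT, 17.0, 15.1, 17.4 and 15.4 in Rag2-/-, and 9.47, 10.4, 17.2 and 11.4 in NSG libraries. All Rag2-/- libraries lay above all WT libraries, and NSG replicate 3 lay among the Rag2-/- values while the other NSG libraries lay near WT. The means were 9.13 ± 0.540, 16.2 ± 1.16 and 12.1 ± 3.50 TPM (SD, n = 4 each). Against WT, Cxcl16 rose in Rag2-/- hosts by a log2 difference of 0.76 (SE 0.15, 95% interval 0.44 to 1.08, limma adjusted p = 0.0225). The size held at 0.72 to 0.80 whichever library was left out. The call was lost without WT replicate 1 (adjusted p = 0.0567), 2 (0.073) or 3 (0.0571) and without Rag2-/- replicate 1 (0.0512), 2 (0.06) or 3 (0.0846). Against NSG the log2 difference was 0.42 (SE 0.15, limma adjusted p = 0.239). Of the 12 fits that left out 1 library, 1 called it, the fit without NSG replicate 3 (0.59, limma adjusted p = 0.0257). Over the 12 fits the adjusted p ranged up to 0.504. For NSG against WT the log2 difference was 0.34 (95% interval 0.02 to 0.66, limma adjusted p = 0.528), and 0.17 without NSG replicate 3 (adjusted p = 0.503). On the gene model, 552 bases or 18.3% of the exon bases of Cxcl16 are shared with Zmynd15 on the opposite strand, and the strand setting of the counting is not given in the sources used here. Zmynd15, named for this overlap, was at 2.61 to 3.21 TPM in WT, 3.17 to 5.67 in Rag2-/- and 3.55 to 4.67 in NSG libraries, so reads of the pair may be uncertain.

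Ccl6, a ligand of Ccr1, showed the largest log2 difference of the 7 genes between Rag2-/- and WT but was not called. It was at 7.32, 2.65, 8.41 and 5.30 TPM in WT, 13.9, 15.0, 11.5 and 9.5 in Rag2-/-, and 8.62, 6.91, 8.07 and 6.19 in NSG libraries. The 4 Rag2-/- libraries lay above all 8 others. The log2 difference was 1.03 against WT (SE 0.25, 95% interval 0.48 to 1.58, limma adjusted p = 0.0507) and 0.67 against NSG (SE 0.25, adjusted p = 0.293). It passed the threshold against WT when the test was limited to genes reaching 1 TPM in each library (limma adjusted p = 0.0415). With voom on estimated reads it also passed (0.043). Of the 12 fits that left out 1 library, it passed in 1, without NSG replicate 3 (0.047), and the adjusted p ranged up to 0.132. Depth was modest, with 12 estimated reads in WT replicate 2 and 124 in Rag2-/- replicate 1.

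Cxcl10 differed in the other direction, again without a call. It was at 8.23, 7.66, 6.99 and 8.26 TPM in WT, 4.32, 8.65, 4.35 and 5.65 in Rag2-/-, and 12.6, 11.6, 5.49 and 11.7 in NSG libraries. The hosts overlapped through Rag2-/- replicate 2, which exceeded all WT libraries, and NSG replicate 3, which lay below them. Rag2-/- against NSG gave a log2 difference of -0.74 (SE 0.24, 95% interval -1.26 to -0.21, limma adjusted p = 0.212). Of the 12 fits that left out 1 library, 1 called it, the fit without NSG replicate 3 (-0.99, limma adjusted p = 0.0369). Over the 12 fits the adjusted p ranged up to 0.485. Rag2-/- against WT gave -0.42 (SE 0.24, adjusted p = 0.343). Cxcl10 shares 133 exon bases, 5.91% of its own, with Art3 on the opposite strand. Art3 was at 7.51 to 11.6 TPM in WT, 3.59 to 11.1 in Rag2-/- and 8.04 to 10.4 in NSG libraries, so reads of this pair may also be uncertain. Within Rag2-/- libraries Ccl6 exceeded Cxcl10 in 4 of 4, with ratios of 1.68 to 3.22, whereas this held in 1 of 4 WT and 1 of 4 NSG libraries.

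**Figure D3:**
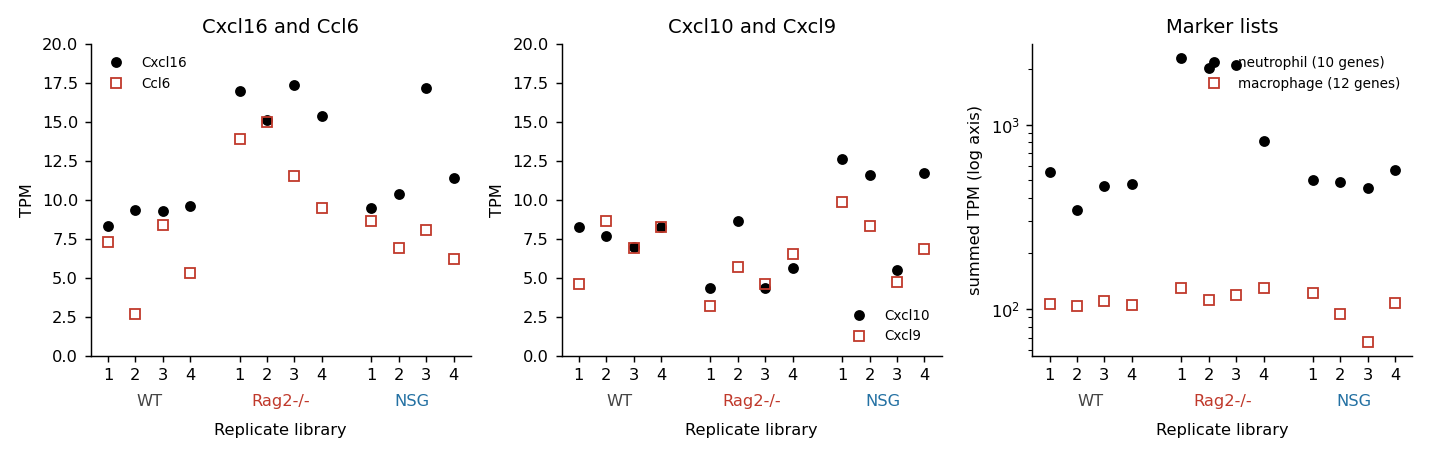
Left and middle, TPM (vertical, linear from 0) of Cxcl16 and Ccl6 and of Cxcl10 and Cxcl9 in each library (horizontal, replicate number within host; the numbers do not order the libraries); right, summed TPM on a log axis of the neutrophil and macrophage marker lists. Cxcl16 is at 15.1 to 17.4 TPM in Rag2-/- libraries and at 17.2 TPM in NSG replicate 3, where the neutrophil sum is 453 TPM.

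Markers of other myeloid cells moved with the same hosts. The RNA was from cells selected for GFP, and myeloid transcripts of host cells and of GFP+ cells cannot be told apart in these values. Of 10 neutrophil genes, 9 were called higher in Rag2-/- than in WT cells, where 1.47% of all genes tested were called in either direction. Against NSG cells 8 were called higher, beside 0.213% of all genes. The median log2 difference of the 10 against WT was 3.15. Cebpe, a gene of that list, went the other way without a call (-0.28 against WT, -0.25 against NSG). S100a9, a cytosolic calcium-binding protein of neutrophils and monocytes, ranged from 17.3 to 701 TPM over the 12 libraries. Within Rag2-/- hosts the neutrophil sum was 2293, 2035, 2101 and 817 TPM. Cxcl16 was 15.4 TPM in the library with 817 and 17.2 TPM in NSG replicate 3 with 453, beside sums of 344 to 553 TPM in WT. Ccl6 was lowest among Rag2-/- libraries in the one with the lowest neutrophil sum, and the part of neutrophil transcripts in either level was not tested. Of 12 macrophage genes, 8 were tested, and 1 was called higher in Rag2-/- than in WT cells, beside 1.47% of all genes tested. This was C1qc, a subunit of complement C1q (0.446 to 2.12 TPM in WT, 2.76 to 5.92 in Rag2-/-). The subunit genes C1qa and C1qb had log2 differences of 1.53 and 1.31 (limma adjusted p = 0.0894 and 0.0506), which were not called. Of the 8 genes, 6 had a higher fitted level in Rag2-/- than in WT cells. The macrophage sum was 104 to 111 TPM in WT, 112 to 130.2 in Rag2-/- and 66.6 to 122 in NSG libraries. Its part in the chemokine levels was not tested either. Of 6 B cell genes, 3 were tested, and 1, Igkc, was called lower in Rag2-/- than in WT cells, beside 1.47% of all genes tested. The log2 difference of Igkc was -2.75 (limma adjusted p = 0.0348). Igkc was at 0.745 to 18.0 TPM in WT, 0 to 0.295 in Rag2-/- and 0 to 0.676 in NSG libraries, and its source was not tested.

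Cxcl2, a neutrophil attractant quickly induced by inflammatory signals, varied more between libraries than between hosts. It was at 41.5, 2.11, 1.18 and 0.409 TPM in WT, 4.32, 4.18, 2.17 and 1.45 in Rag2-/-, and 2.44, 1.38, 4.44 and 1.24 in NSG libraries. WT held both the highest and the lowest library, with 199 and 2 estimated reads. The log2 difference was -0.23 for Rag2-/- against WT (95% interval -2.04 to 1.58, limma adjusted p = 0.905). Without WT replicate 1 it became 0.85 (adjusted p = 0.28), so the direction rested on that library. For NSG against WT, -0.51 (adjusted p = 0.895) became 0.58 without it (adjusted p = 0.73). Neither sign was called.

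The high Cxcl2 library was also high in part of a list of genes induced through NF-kB. Of 12 such genes, 7 had their highest level of all libraries in WT replicate 1. The counts were 2 each in Rag2-/- replicates 2 and 3, 1 in WT replicate 4 and 0 in the others. Those that peaked elsewhere were Nfkbia, Icam1, Tnf, Nfkb2 and Cd83. Nfkbia was at 229 TPM in WT replicate 1 and up to 293 elsewhere, and Icam1 at 28.3 and up to 35.6. How many of all genes peaked in WT replicate 1 was not counted. Ier3, an immediate early gene, was at 133 TPM there and 43.1 to 101 TPM elsewhere. The tested genes most like Cxcl2 over the 12 libraries were Nfkbiz, an atypical IkB protein (Pearson r = 0.94, Spearman rho = 0.92), Il1b, the cytokine IL-1 beta (r = 0.94, rho = 0.90), and Ppp1r15a, a stress-induced phosphatase subunit (r = 0.92, rho = 0.83). Without WT replicates 1 and 4, which were farthest from the median of Cxcl2, r was 0.86, 0.82 and 0.75. Other genes of the NF-kB list fell further, with r for Tnfaip3 going from 0.90 to 0.20, for Ptgs2 from 0.83 to 0.59 and for Zfp36 from 0.80 to 0.55. Nfkbiz was at 34.3 TPM and Il1b at 5.88 TPM in WT replicate 1, and at most 20.8 and 2.59 TPM in the others. By letters chosen after the sequences were seen, the upstream window of Cxcl2 held 2 kB matches, and those of Cxcl10 and Ccl9 also held a match. The part of NF-kB in the Cxcl2 level was not tested. Between hosts, 0 of the 11 tested genes of the NF-kB list were called in any comparison. Of all genes tested, 1.47% (Rag2-/- against WT), 0.213% (Rag2-/- against NSG) and 0% (NSG against WT) were called, so 0 of 11 does not set the list apart.

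**Figure D4:**
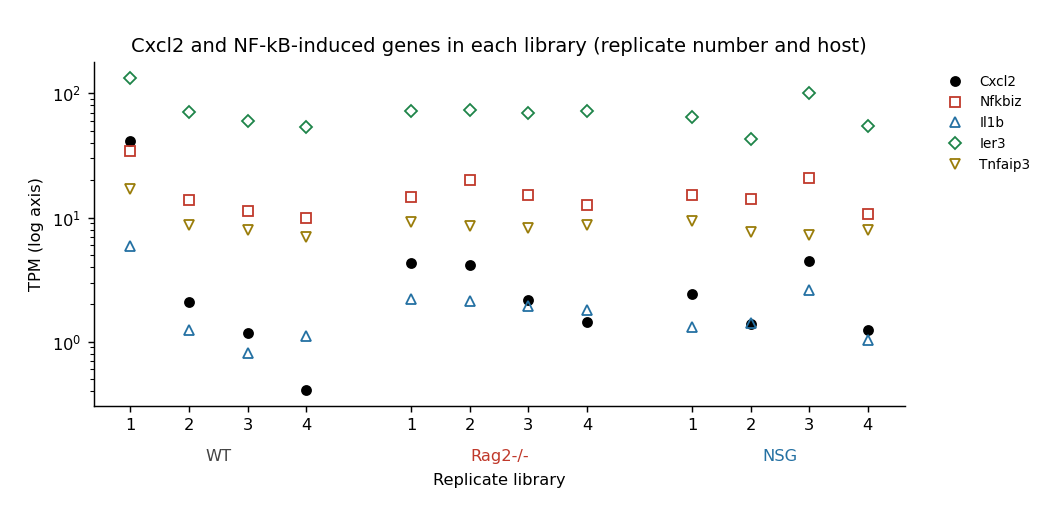
TPM on a log axis (vertical) of Cxcl2 and of Nfkbiz, Il1b, Ier3 and Tnfaip3 in each library (horizontal, replicate number within host; the numbers do not order the libraries). WT replicate 1 has the highest value of each of these 5 genes, 41.5 TPM for Cxcl2. Other genes of the NF-kB list, such as Nfkbia and Icam1, were not highest in that library and are not drawn.

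Cxcl10 was set beside interferon-induced genes in the same way. Cxcl9, which shares the receptor Cxcr3 with Cxcl10, correlated with it over the 12 libraries at r = 0.74 (rho = 0.66), and Rsad2, an antiviral enzyme, at r = 0.79 (rho = 0.78). Rsad2 had the highest r of the 7 genes compared, Cxcl9 among them, and was chosen after its values were seen. Other genes of the list were less alike, with r = 0.62 for Isg15 and r = 0.50 for Irf1, a transcription factor. Without the 2 libraries farthest from the median of Cxcl10, r was 0.54 for Cxcl9, 0.60 for Rsad2, 0.22 for Isg15 and 0.32 for Irf1. Of 12 interferon-induced genes tested, 0 were called in any comparison. Of all genes tested, 1.47% (Rag2-/- against WT), 0.213% (Rag2-/- against NSG) and 0% (NSG against WT) were called. A lower fitted level in Rag2-/- than in WT cells was found for 11 of the 12, beside 45.5% of all genes tested. The median log2 difference of the 12 was -0.23. Isg15, a ubiquitin-like protein, had -0.88 (limma adjusted p = 0.0506). The tested genes most like Cxcl10 were Pafah1b1, a dynein regulator (r = 0.92, rho = 0.97), Gm44067 (r = 0.89) and Il21r, a cytokine receptor (r = 0.89).

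For the remaining genes the most alike were Map1lc3b (r = 0.87), Stk17b (0.86) and Snora31 (0.85) for Ccl3, and Gm9855 (0.90), 4921507P07Rik (0.88) and Mir6907 (0.85) for Ccl4. Ccl9 was nearest to Trf (0.89), Gm10974 (0.88) and Ptprf (0.87), and Ccl6 to Sqor (0.93), Syne2 (0.93) and Sel1l (0.92). Cxcl16 was nearest to Wipi1 (0.97), Gm27252 (0.95) and Mctp2 (0.95). These are the highest of 15026 genes over 12 libraries that also share host and depth, and they are given as a description only.

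Ccl5 (RANTES), which NK and T cells make in large amounts, was near the limit in these cells. It was at 0.449, 0, 0.266 and 0 TPM in WT, 2.72, 1.80, 0.426 and 0.953 in Rag2-/-, and 0.375, 0, 0.368 and 0.643 in NSG libraries. The Rag2-/- replicate 3 library overlapped with the other hosts, and replicate 1 was the highest. Summed over the 4 libraries of a host, these values amount to 2 estimated reads in WT, 25 in Rag2-/- and 5 in NSG cells, at summed depths of 38.5, 58.6 and 46.2 in units of 1000000 reads. A count of 3 reads would correspond to 0.520 to 1.34 TPM for Ccl5, depending on the library. Ccl5 did not enter the main test. When all genes above 0 TPM were tested, its log2 difference was 1.00 for Rag2-/- against WT (SE 0.27, limma adjusted p = 0.121) and 0.81 against NSG (adjusted p = 0.355). With voom on the estimated reads of all genes the first was 2.16 (adjusted p = 0.0669).

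NK cell genes were read beside Ccl5, which had reads in 4 of 4 Rag2-/-, 2 of 4 WT and 3 of 4 NSG libraries. Of 14 NK and T cell genes, 1 had a mean of at least 1 TPM, Nkg7, a cytotoxic granule protein also made in other cells (5.20 to 6.71 TPM in WT, 1.79 to 5.19 in Rag2-/-, 1.16 to 7.43 in NSG). The sum of the list was 5.47 to 7.83 TPM in WT, 5.17 to 12.3 in Rag2-/- and 1.64 to 8.39 in NSG libraries. Ncr1, which encodes the NK receptor NKp46, was at 0.391, 0.408, 0.531 and 0.108 TPM in Rag2-/- libraries and at 0 in all 8 others. Gzma, a granzyme, was at 0.624 to 2.39 TPM in Rag2-/- libraries, at 0 in WT and at 1.67 TPM in 1 NSG library. Klrb1c, an NK receptor gene, was at 0 to 0.728 TPM in WT, 0.421 to 1.73 in Rag2-/- and 0.0348 to 0.477 in NSG libraries. Il2rb, an IL-2 receptor subunit, was at 0.349 to 1.22 TPM in Rag2-/- and at most 0.197 TPM elsewhere. Cd3e, a T cell receptor subunit, was at 0 in all 12 libraries. Ncr1, Il2rb and Cd3e were chosen after their values were seen, and the part of NK cells in the Ccl5 level was not tested.

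**Figure D5:**
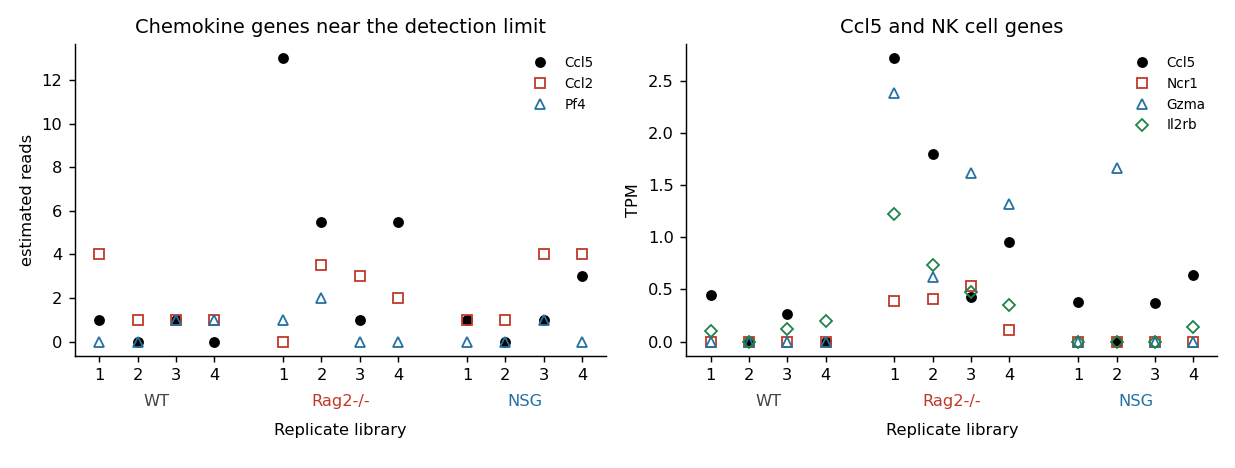
Left, estimated reads (vertical) of Ccl5, Ccl2 and Pf4 in each library (horizontal, replicate number within host; the numbers do not order the libraries); right, TPM of Ccl5 and of the NK cell genes Ncr1, Gzma and Il2rb. Ccl5 reaches 13 reads in 1 Rag2-/- library, Ccl2 stays at or below 4 reads and Pf4 at or below 2 reads.

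Ccl2 (MCP-1), the main ligand of the monocyte receptor Ccr2, was at 1.52, 0.348, 0.225 and 0.372 TPM in WT, 0, 0.966, 1.08 and 0.292 in Rag2-/-, and 0.316, 0.294, 1.24 and 0.724 in NSG libraries. The hosts overlapped fully, and no library had more than 4 estimated reads. Pf4 was at 0, 0, 0.355 and 0.586 TPM in WT, 0.278, 0.871, 0 and 0 in Rag2-/-, and 0, 0, 0.490 and 0 in NSG libraries. It had 2 estimated reads over the 4 WT libraries, 3 over the Rag2-/- and 1 over the NSG libraries, and a count of 3 reads would be 0.692 to 1.79 TPM. Platelet markers were low but present in part. Of 12 genes, 3 had a mean of at least 1 TPM, with Gp9 at 0.450 to 6.53 TPM, Gp1ba at 1.54 to 6.69 and Itga2b at 1.24 to 2.28, and 3 were at 0 in every library. Ppbp, an abundant platelet chemokine, was among the latter. The platelet sum was 6.86 to 11.2 TPM in WT, 9.29 to 13.1 in Rag2-/- and 10.1 to 15.7 in NSG libraries. For Ccl2 and Pf4 a host difference was not detectable at this depth.

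Among 28 other chemokine genes, 3 met the criteria for clear expression and 10 were at 0 in every library. The 3 were Ccl17 (13.8 to 27.3 TPM), a ligand of Ccr4, Cxcl9 (3.19 to 9.84 TPM) and Ccl25 (2.13 to 4.00 TPM). The ranges of Cxcl9 and Ccl25 overlapped those of Apoa2 (2.58 to 6.70 TPM) and Tnni3 (2.88 to 6.24 TPM), genes of other tissues. That of Ccl25 did not reach above them, so its level alone did not set it apart. Ccl17 was thus above Cxcl16 in mean level, at 20.6 against 12.5 TPM. Of the 4 that were tested, 0 were called in any comparison. The share of all genes called was 1.47% (Rag2-/- against WT), 0.213% (Rag2-/- against NSG) and 0% (NSG against WT).

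The receptors and handling proteins of these chemokines were also read. Of 10 receptor genes read out, 6 had a mean of at least 1 TPM. Ccr2 (277 to 409.5 TPM) and Ccr1 (161 to 247 TPM) were the most abundant. The Ccr2 transcript thus stood beside little of its ligand Ccl2, and that of Ccr1 beside abundant ligands, Ccl3 and Ccl9. Between Rag2-/- and WT cells, 1 of the 6 was called, beside 1.47% of all genes tested. This was Cxcr2, the receptor of Cxcl2, with a log2 difference of 1.14 (SE 0.20, limma adjusted p = 0.0154). Against NSG cells (2.60 to 3.02 TPM) the log2 difference of Cxcr2 was 0.91 (limma adjusted p = 0.0818), which was not called. Cxcr2 was at 2.26, 2.41, 2.81 and 1.80 TPM in WT and 7.77, 7.62, 6.97 and 3.68 in Rag2-/- libraries. Among the latter it was lowest in the library with the lowest neutrophil sum. Cxcr2 is abundant in neutrophils, and their part in this difference was not tested. Ccr1 had an adjusted p of 0.0183 by limma but a log2 difference of 0.43, within the limit of 0.5. Adam10 (361 to 432 TPM) and Adam17 (61.2 to 80.6 TPM), proteases that release Cxcl16 from the surface, and Srgn (1315 to 2036 TPM), a proteoglycan that holds chemokines in granules, were called in 0 comparisons.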

How the data were processed

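RNA-seq of GFP+ leukemia cells grown in 3 kinds of host (WT, Rag2-/-, NSG; 4 libraries a host) was analysed from 1 table. The authors aligned paired-end reads to mm10 with HISAT2 on Galaxy, took raw gene counts and converted them, and the deposited values are TPM. The counting tool, annotation, gene lengths and strand setting are not given in the sources used here. Of 55401 genes, 55141 were matched to a symbol and exon length in GENCODE M21, which also gave positions (GRCm38). Number of value columns left unused: 0.

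TPM were analysed as log2(TPM + 1). The 15026 genes averaging 1 TPM or more were fitted over the 12 libraries in R 4.3.3 by limma 3.58.1 (lmFit, contrasts.fit, eBayes with a trend), without covariates, adjusted by Benjamini-Hochberg, and called at an adjusted p below 0.05 and a log2 fold change beyond 0.5. Fold changes on this scale understate those of low genes, and p-values measure the spread between these libraries. Intervals (95%) are unadjusted. Reads were estimated from the spacing of low TPM values and exon lengths; under 20 reads, 63.1% to 66.3% came out whole (tolerance 0.02), and for the chemokine genes 65 of 65 values under 100 reads were multiples of 0.5 read (tolerance 0.05). They carry no interval. Clear expression meant at least 1 TPM and 10 estimated reads in every library, and near the limit meant 10 reads in fewer than 6 libraries. Genes most like a chemokine gene were the 3 with the highest Pearson r over 12 libraries. Other genes named are a selection of the called and the 3 highest of each list, unless stated. A receptor gene is not reported here. The chemokine genes, lists and tests were chosen with earlier results of these data known.

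On simulated data (15000 genes, 200 changed in Rag2-/-), the fit of Rag2-/- against WT recovered 74% of 2-fold and 86% of 4-fold changes. These folds were planted in TPM + 1, so for genes of a few TPM the recovery of 2-fold changes in TPM itself may be lower. The fit called 5 unchanged genes in Rag2-/- against WT, and 0 genes in NSG against WT, where no change was planted. Noise was drawn for each gene on its own, so shifts shared by the genes of a library were not simulated. The alternatives were another pseudocount (0.1), filter, normalization, prior or subset of libraries, a replicate block, no fold limit, voom on estimated reads and each library left out; voom on all genes was chosen after seeing the data. Tables and figures were made in Python 3.11.15 with pandas 2.3.3, numpy 2.4.6, matplotlib 3.10.9 and scipy 1.17.1.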

Additional observations from a re-analysis of the deposited data

Results flagged for a closer look

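Within a host, 4 values lay far from the other 3 libraries by Dixon's test on the gap divided by the range. It was run on 33 groups, of which chance would give about 1.65 if the values were continuous and normally distributed. Groups of a few estimated reads are not, and 1 read beside 3 libraries at 0 gives a gap over range of 1 by arithmetic. The 4 flagged values therefore cannot be weighed against 1.65, and they are given as a description. In WT replicate 1, Cxcl2 was 41.5 TPM against at most 2.11 in the other WT libraries (gap over range 0.959). Ccl2 in the same library was 1.52 TPM against at most 0.372 (0.886), which is 4 estimated reads against 1 in each of the others. In NSG replicate 3, Cxcl10 was 5.49 TPM against at least 11.6 in the other NSG libraries (0.858), and Pf4 was 0.490 TPM with the others at 0 (gap over range 1), which is 1 estimated read. That library also had the lowest macrophage sum of the 12 (66.6 TPM) and the lowest correlation with the mean of the other libraries of its host over all genes tested (0.974, others 0.977 to 0.986).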

How the results depend on the processing

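Between Rag2-/- and WT, the number of chemokine genes called was 1, and 2 with a filter of 1 TPM in each library or with voom on estimated reads, where Ccl6 joined Cxcl16. Leaving out 1 library gave 0 to 2 (0 when replicate 1, 2 or 3 of WT or of Rag2-/- was missing, and 2 without NSG replicate 3). Between Rag2-/- and NSG the number was 0, and 0 to 2 when a library was left out, with 1 higher and 1 lower without NSG replicate 3. Between NSG and WT it stayed at 0 under all alternatives run. The number of genes above 1 TPM in every library was 6 under the other limits, scaling and left-out libraries, and 7 without WT replicate 4, where Cxcl2 joined. The log2 difference of Cxcl2 in Rag2-/- against WT turned from -0.23 to 0.04 with a pseudocount of 0.1, 0.07 with voom and 0.06 with voom on all genes, and ranged from -0.79 to 0.85 over left-out libraries. That of Cxcl2 in NSG against WT ranged from -1.06 to 0.58, of Ccl9 in Rag2-/- against NSG from -0.01 to 0.12, and of Ccl3 in NSG against WT from -0.01 to 0.11. None of these was called, and beyond the libraries left out the cause was not tested. Replicate numbers did not pair the libraries (0 of 12 pairs above a correlation of 0.1, range -0.091 to 0.032, and 0 libraries correlated best with their own number). With the replicate block, 1 chemokine gene was called in Rag2-/- against WT and 0 in the other comparisons, and all calls fell from 221 to 165 in the first and from 32 to 5 in Rag2-/- against NSG. Over all genes, Rag2-/- against WT gave 48 to 327 calls and Rag2-/- against NSG 4 to 90 when a library was left out. Genes under about 10 estimated reads (Ccl2, Ccl5, Pf4) are limited by depth.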
